A study of Homo sapiens with 6 samples.

Results

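The Notch receptors, ligands and targets were followed in MDA-MB-231 cells, a human triple-negative breast cancer (TNBC) line, after silencing of the kinase NEK2. The genes were chosen by name, with earlier results of these data known. They were the receptors NOTCH1, NOTCH2, NOTCH3 and NOTCH4, the ligands JAG1 and JAG2, the DNA-binding factor RBPJ, and the targets HES1, HES4 and HEY1. Of these 10 genes, 9 were found by symbol among the 74852 rows of the deposited gene table, and all 9 passed the filter on low values. JAG2 was not analysed here.

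Cells of both groups were the same line, grown in the same medium and transfected in 2 rounds, with control siRNAs that target no gene (si-CTRL) or with pooled siRNAs that target NEK2 (si-NEK2). The sample records place the harvest 24 h after the second transfection. The methods of the study give a longer interval and do not name the round it is counted from, so the 2 statements need not conflict. PolyA-containing RNA was sequenced in 3 libraries per group. The model is a single established line under transient silencing, and the records do not say whether the 3 libraries of a group came from separate cultures, so that p-values here measure the spread between these libraries.

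The libraries held between 52625492 and 87454509 assigned reads, and 1 read was worth between 0.818 and 1.25 normalized counts, the deposited unit (reads on a gene divided by the size factor of the library). Over the 18717 tested rows, principal component 1 (61.7% of the variance) split si-CTRL from si-NEK2, and si-CTRL replicate 1 stood apart on component 2 (16.2%). NEK2 itself had a mean of 3438 normalized counts in si-CTRL and 344.9 in si-NEK2, so that 10% remained. As labelled, all 5 mesenchymal markers (VIM, ZEB1, CD44, FN1 and AXL) were detected and the hormone receptor genes ESR1 and PGR had means under 10 normalized counts. Of the epithelial markers, CDH1 and EPCAM were also under 10, but KRT8 had a mean of 20025 and KRT18 of 24700, and of the luminal markers ERBB2 had 3421, FOXA1 1339 and GATA3 374 normalized counts. Of 3 fibroblast markers, COL1A1 had a mean of 150878 and PDGFRA, in a row shared with FIP1L1, of 4593, while DCN was under 10. Of 4 leukocyte markers, 3 were under 10 and PTPRC had a mean of 10.1. The summed level of the 5 mesenchymal markers ranged from 390701 to 484835 normalized counts in si-CTRL and from 362389 to 393849 in si-NEK2, and that of 5 luminal and hormone receptor markers from 3652 to 4838 and from 6068 to 6314. The 4 epithelial markers summed to 40465 to 44330 in si-CTRL and 45475 to 48853 in si-NEK2. The genes of a list did not all move alike. Of the mesenchymal markers, ZEB1 (means of 5146 in si-CTRL and 2900 in si-NEK2) and CD44 (54108 and 31464) were lower in si-NEK2, without overlap. The means of VIM, AXL and FN1 were 11.8%, 13.1% and 4.64% lower, with overlapping groups for AXL and FN1. VIM and FN1 make up most of the summed level. ERBB2 (means of 2822 in si-CTRL and 4020 in si-NEK2) and FOXA1 (826 and 1851) were higher in si-NEK2. GATA3 (427 and 321) and ESR1 (8.22 and 5.69) had lower means, with overlapping groups. KRT8 was higher (17463 and 22587), while KRT18 differed little (24840 and 24560). Whether these shifts had a part in the values of the Notch genes was not tested.

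Notch signalling passes between touching cells. A ligand such as JAG1 on one cell binds a Notch receptor on its neighbour, an ADAM protease and then the gamma-secretase complex cut the receptor, and the freed intracellular domain enters the nucleus. There it joins RBPJ and a Mastermind co-activator on DNA and switches on HES and HEY genes, which encode transcriptional repressors, whereas RBPJ without the domain recruits co-repressors to many of the same genes. In the mammary gland the pathway takes part in the choice between progenitor and luminal fates.

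The DNA letters that RBPJ recognises, GTGGGAA, were searched on both strands of promoter windows that run from 250 bases before to 50 bases after each annotated start (RefSeq, GRCh38.p14). Windows of 8 of the 9 genes were searched, without HEY1. These were 12 windows in all, and 3 windows, of 3 genes, held the motif. These are shown because they hold the letters searched for, with the motif in capitals. The RBPJ window lies at chr4:26319496-26319795 on the plus strand and is 1 of 5 annotated for this gene, that of HES1 at chr3:194135898-194136197 on the plus strand, and that of HES4 at chr1:1000048-1000347 on the minus strand.
RBPJ: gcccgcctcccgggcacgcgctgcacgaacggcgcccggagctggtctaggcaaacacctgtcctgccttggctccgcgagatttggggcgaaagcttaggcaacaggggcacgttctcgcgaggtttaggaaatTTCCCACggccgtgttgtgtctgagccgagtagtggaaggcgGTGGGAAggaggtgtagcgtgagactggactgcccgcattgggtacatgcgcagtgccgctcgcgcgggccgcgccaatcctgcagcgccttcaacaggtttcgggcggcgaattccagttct
HES1: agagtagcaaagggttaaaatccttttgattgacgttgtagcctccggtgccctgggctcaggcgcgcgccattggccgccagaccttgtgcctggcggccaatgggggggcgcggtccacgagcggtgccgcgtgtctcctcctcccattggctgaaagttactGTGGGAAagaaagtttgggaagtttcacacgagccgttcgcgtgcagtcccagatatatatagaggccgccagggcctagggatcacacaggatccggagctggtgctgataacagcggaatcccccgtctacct
HES4: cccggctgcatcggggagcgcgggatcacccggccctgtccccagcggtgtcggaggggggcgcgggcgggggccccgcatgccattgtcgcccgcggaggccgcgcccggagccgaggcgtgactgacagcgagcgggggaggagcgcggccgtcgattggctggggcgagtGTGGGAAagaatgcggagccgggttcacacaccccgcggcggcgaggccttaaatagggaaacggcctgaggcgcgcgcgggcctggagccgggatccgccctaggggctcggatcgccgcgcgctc
In the HES1 window the motif began 85 bases before the start, and the shorter core TGGGAA, which the longer motif contains, occurred once more 70 bases before it. The HES4 motif began 77 bases before the start. The RBPJ window held the motif on both strands, 115 bases before the start (minus strand) and 73 bases before it (plus strand). Over all 35116 windows of this length, 6.25% held GTGGGAA and 24.0% held TGGGAA. A match describes these letters and is not a measured binding site.

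The main comparison asked which Notch genes differed after NEK2 silencing. RBPJ fell to 25.4% of its si-CTRL level, JAG1 and NOTCH4 fell by smaller amounts, and HES1 rose. The other 5 genes, NOTCH1, NOTCH2, NOTCH3, HES4 and HEY1, did not pass the test. A gene is said to rise or fall where limma, fitted on log2(normalized count + 1) over all 18717 rows whose mean reached 10 normalized counts, gave an adjusted p (Benjamini-Hochberg) no higher than 0.05. By this rule 1 Notch gene was higher and 3 were lower, beside 21.8% of all rows higher and 21.3% lower. By the thresholds of the study, an unadjusted p up to 0.05 together with a 1.5-fold change, no Notch gene was higher and 1, RBPJ, was lower, beside 8.23% and 14.3% of all rows. Only the thresholds are those of the study, and the calls and shares come from the limma fit used here. The count of 0 higher also held in edgeR and DESeq2. The groups did not overlap for 5 of the 9 genes, while this held for 55% of all rows.

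**Figure D1:**
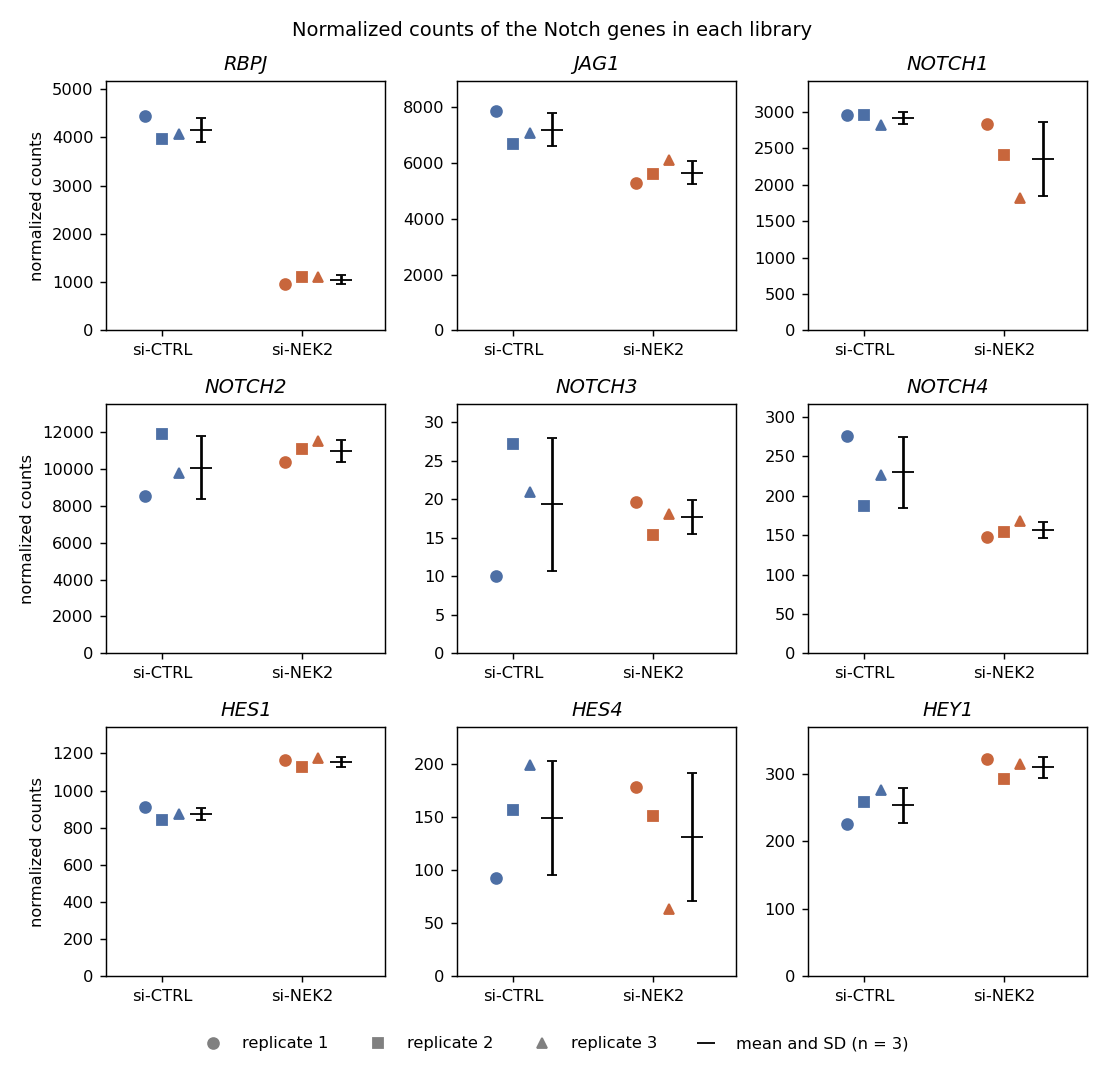
Normalized counts (vertical axes, each from 0) of the 9 Notch genes in the 3 si-CTRL (blue) and 3 si-NEK2 (orange) libraries, with the mean and SD of each group (n = 3) as black bars and a symbol for each replicate number. RBPJ lies between 3956 and 4437 in si-CTRL and between 952 and 1106 in si-NEK2, whereas the groups of NOTCH1, NOTCH2, NOTCH3 and HES4 overlap.

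RBPJ, the factor through which every Notch receptor reaches DNA, showed the largest difference of the 9 genes. Its row (GSHG0022511, chromosome 4 from 26321332 to 26436750, hg19) held 4437, 3956 and 4058 normalized counts in si-CTRL replicates 1 to 3 and 952, 1101 and 1106 in si-NEK2 replicates 1 to 3. Every si-NEK2 library thus lay far below every si-CTRL library. The mean was 4150 ± 254 in si-CTRL and 1053 ± 87.7 in si-NEK2 (SD, n = 3 each), a log2 fold change of -1.98 (95% interval -2.18 to -1.78, adjusted p = 4.08e-06 by limma with Benjamini-Hochberg adjustment). Of all rows tested, 0.999% had a lower log2 fold change. The reads of RBPJ are partly uncertain, since GENCODE 29 lists 4 pseudogenes named after it, with which reads could be shared. It lists 1 more named after another of these genes. As the RNA is from bulk cells, fewer cells with the transcript and less transcript per cell cannot be told apart, here and for every gene below.

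JAG1 encodes a membrane-bound ligand of the Jagged type, and it fell less than RBPJ. Its row (GSHG0132306, chromosome 20 from 10618332 to 10654694, hg19, shared with the microRNA gene MIR6870) held 7836, 6654 and 7069 normalized counts in si-CTRL and 5280, 5581 and 6087 in si-NEK2. The highest si-NEK2 library stayed under the lowest si-CTRL library. The mean fell from 7186 ± 600 to 5649 ± 408 (SD, n = 3 each), a log2 fold change of -0.35 (95% interval -0.54 to -0.16, adjusted p = 0.0096 by limma), which is under the 1.5-fold threshold.

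The 4 receptors did not move together. NOTCH4, a receptor best known from endothelial cells, fell: its row (GSHG0033517, chromosome 6 from 32162621 to 32191844, hg19) held 276, 187 and 226 normalized counts in si-CTRL and 147, 155 and 168 in si-NEK2. The groups did not overlap, with the smallest gap between si-CTRL replicate 2 and si-NEK2 replicate 3. The means were 229.8 ± 44.7 and 156.4 ± 10.2 (SD, n = 3 each), a log2 fold change of -0.54 (95% interval -0.90 to -0.17, adjusted p = 0.0241 by limma). The call was lost without si-CTRL replicate 3 (adjusted p = 0.0585), si-NEK2 replicate 1 (0.0809) or si-NEK2 replicate 2 (0.0742), and under quantile normalization (-0.37, adjusted p = 0.104), all by limma. The NOTCH4 row overlaps that of GPSM3, whose mean was 201% of that of NOTCH4 and which fell as well (log2 fold change -0.97, adjusted p = 0.00102 by limma). How the counting treated overlapping genes is not given in the sources used here, so reads from the shared stretch cannot be assigned with certainty. The 2 endothelial markers examined, PECAM1 and CDH5, had a summed level of 34.2 to 58.7 normalized counts in si-CTRL and 16.3 to 33.1 in si-NEK2, and their part in the NOTCH4 value was not tested.

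NOTCH1 (GSHG0031278, chromosome 9 from 139388886 to 139440238, hg19) held 2960, 2961 and 2821 normalized counts in si-CTRL and 2827, 2410 and 1810 in si-NEK2. The si-CTRL libraries lay close together, while the si-NEK2 libraries spread from a value within the si-CTRL range to one far below it. The means were 2914 ± 80.6 and 2349 ± 512 (SD, n = 3 each), with a log2 fold change of -0.33 (95% interval -0.66 to -0.01, adjusted p = 0.0884 by limma). Leaving out si-NEK2 replicate 1 gave -0.48 (adjusted p = 0.0234), and leaving out si-NEK2 replicate 3 gave -0.16 (adjusted p = 0.238), both by limma.

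NOTCH2, the receptor with most reads, held 8504, 11884 and 9759 normalized counts in si-CTRL and 10340, 11082 and 11477 in si-NEK2 (GSHG0002419, chromosome 1 from 120454176 to 120612317, hg19). All 3 si-NEK2 libraries fell within the si-CTRL range. The log2 fold change was 0.14 (95% interval -0.12 to 0.40, adjusted p = 0.36 by limma), and without si-CTRL replicate 2, the highest library, it was 0.27 (adjusted p = 0.0453 by limma). A further row, named for NOTCH2NL together with 3 NBPF genes and thus uncertain, had a log2 fold change of 0.29 (adjusted p = 0.243 by limma). Reads could be shared between that row and NOTCH2, so the NOTCH2 counts are partly uncertain too.

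NOTCH3 was close to the filter. Its row (GSHG0015579, chromosome 19 from 15270445 to 15311794, hg19, shared with MIR6795) held 10.0, 27.1 and 20.9 normalized counts in si-CTRL and 19.6, 15.4 and 18.1 in si-NEK2, from 8 to 28 reads per library. The si-NEK2 libraries lay within the si-CTRL range, and the log2 fold change was -0.02 (95% interval -0.90 to 0.85, adjusted p = 0.969 by limma). Changes within this interval could not be detected at this depth, and the sign turned under quantile normalization (0.12) and in 3 of the fits that left out a library, that is without replicate 2 (0.26) or replicate 3 (0.083) of si-CTRL and without replicate 2 of si-NEK2 (0.071).

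Among the targets, HES1 rose. HES1, a basic helix-loop-helix repressor and a common readout of Notch activity, held 910, 843 and 872 normalized counts in si-CTRL and 1166, 1125 and 1175 in si-NEK2 (GSHG0021436, chromosome 3 from 193853931 to 193856400, hg19). The groups were well apart, with narrow spread in both. The mean rose from 874.8 ± 33.7 to 1155 ± 26.5 (SD, n = 3 each), a log2 fold change of 0.40 (95% interval 0.23 to 0.57, adjusted p = 0.00292 by limma), again under 1.5-fold. HEY1, a related repressor, held 225, 259 and 276 normalized counts in si-CTRL and 322, 292 and 315 in si-NEK2 (GSHG0029668, chromosome 8 from 80676259 to 80680508, hg19). Its groups did not overlap either, but the log2 fold change of 0.29 (95% interval 0.03 to 0.56) had an adjusted p of 0.0725 by limma. It ranged from 0.16 under equal total scaling to 0.45 under quantile normalization, where it passed (adjusted p = 0.013 by limma).

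HES4, a member of the same family, held 92.5, 156 and 199 normalized counts in si-CTRL and 178, 151 and 62.9 in si-NEK2 (GSHG0001645, chromosome 1 from 934313 to 935552, hg19). Both groups spread over a wide range and overlapped. The log2 fold change was -0.25 (95% interval -1.16 to 0.66, adjusted p = 0.648 by limma), and it was 0.21 without si-NEK2 replicate 3, the lowest library. HES1, HES4 and RBPJ carry GTGGGAA in the promoter windows shown above, RBPJ in 1 of its 5 windows. The windows of NOTCH1, NOTCH2, NOTCH3, NOTCH4 and JAG1 do not. Over all 27305 genes with windows, 2082 carried it in at least 1 window. The promoter of HEY1 was not searched.

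**Figure D2:**
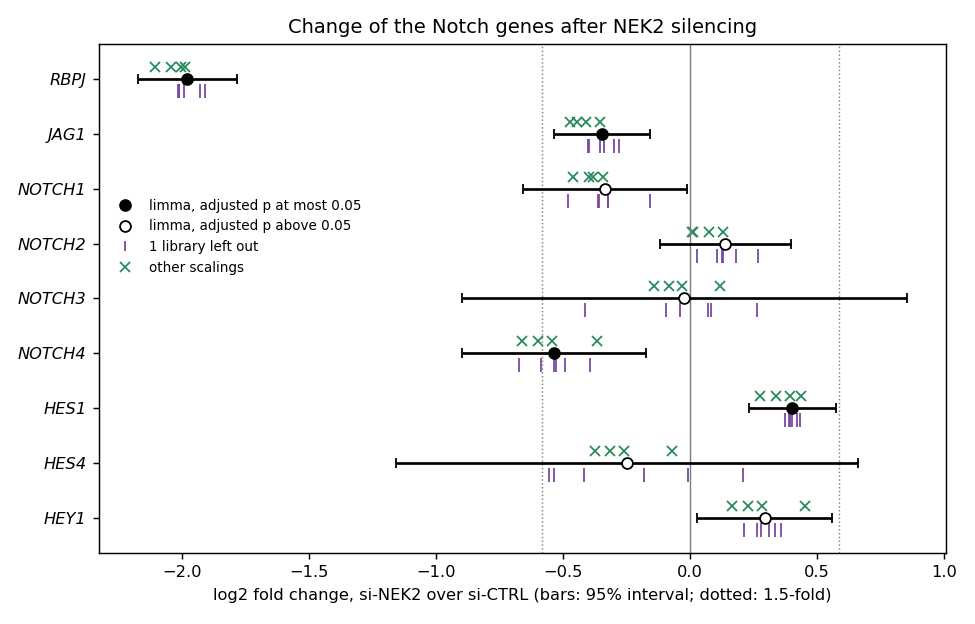
Log2 fold change of each Notch gene in si-NEK2 over si-CTRL (horizontal axis, limma, points with 95% interval; filled points have an adjusted p of at most 0.05), with values after leaving out 1 library (purple ticks) and under other scalings (green crosses); dotted lines mark 1.5-fold. RBPJ at -1.98 lies apart from all other genes, and the values of NOTCH3 and HES4 fall on both sides of 0, those of NOTCH3 also among the scalings.

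To set the genes beside each other, normalized counts were divided by the length of the merged exons of each gene (GENCODE 29). In si-CTRL, JAG1 stood highest with 773 ± 64.5 normalized counts per kilobase (SD, n = 3), followed by NOTCH2 with 598 ± 102 and RBPJ with 449 ± 27.4. HES1 had 424 ± 16.4 and NOTCH1 281 ± 7.77 normalized counts per kilobase. HES4 had 133 ± 47.8, HEY1 78.3 ± 7.98, NOTCH4 23.6 ± 4.59 and NOTCH3 2.06 ± 0.92. In this order the neighbours RBPJ and HES1, and HES4 and HEY1, overlapped between libraries, and all other neighbours were apart.

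In si-NEK2 the order was NOTCH2 with 652 ± 34.4, JAG1 with 608 ± 43.8, HES1 with 560 ± 12.8 and NOTCH1 with 226 ± 49.3 normalized counts per kilobase. HES4 had 117 ± 53.9, RBPJ 114 ± 9.48, HEY1 95.7 ± 4.81, NOTCH4 16.05 ± 1.05 and NOTCH3 1.89 ± 0.23. RBPJ thus moved from a level near HES1 to a level near HES4, whose libraries overlapped with it. NOTCH2 and JAG1, and JAG1 and HES1, also overlapped in si-NEK2. With the longest transcript as the length, RBPJ had 176, HEY1 135 and HES4 126 normalized counts per kilobase in si-NEK2, so the order of these 3 depends on the length used.

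**Figure D3:**
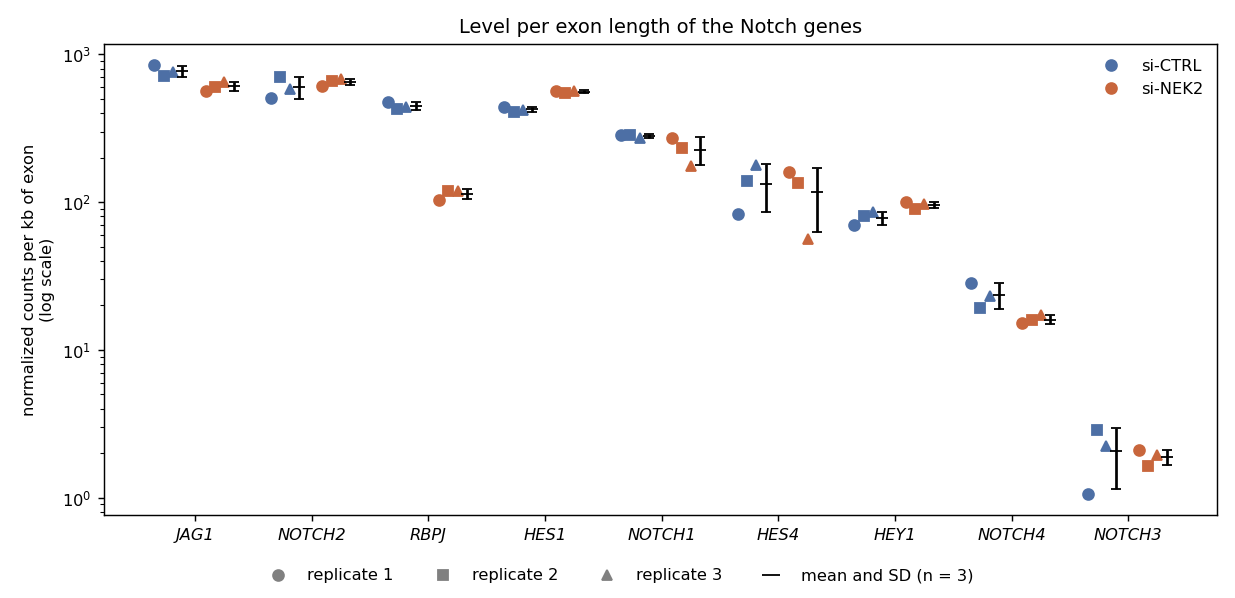
Level of the Notch genes per kilobase of merged exon (vertical axis, normalized counts per kilobase, log scale) in each si-CTRL (blue) and si-NEK2 (orange) library, with mean and SD (n = 3); genes are ordered by their si-CTRL mean. RBPJ drops from a mean of 449 to 114, while NOTCH3 stays near 2 in both groups.

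The receptor pool was described as the share of each receptor in the summed level per kilobase of the 4. NOTCH2 made up 65.8 ± 4.03% in si-CTRL and 72.8 ± 4.97% in si-NEK2, and NOTCH1 31.3 ± 3.33% and 25.2 ± 5.12% (SD, n = 3 each). NOTCH4 made up 2.66 ± 0.78% and 1.79 ± 0.15%, and NOTCH3 0.223% and 0.210%. The groups overlapped for all 4 shares. Reads that NOTCH2 may share with the NOTCH2NL row were not set apart. The two-sided exact permutation test gave p = 0.2 for NOTCH1, NOTCH2 and NOTCH4 and p = 0.8 for NOTCH3, where 3 libraries against 3 cannot go below 0.1.

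The other genes of the pathway were taken from lists by role, which were also chosen with earlier results of these data known. Of 69 genes listed, 60 were tested, and 15 of them (25%) rose, 13 (21.7%) fell and 32 did not pass the test, shares near the 21.8% and 21.3% of all rows. Without si-CTRL replicate 1, 23 rose, and the share of all rows that rose was then 26.8%. By the thresholds of the study 5 (8.33%) were higher and 8 (13.3%) lower, near the 8.23% and 14.3% of all rows. Among 7 genes of receptor cleavage, 5 rose, PSEN2 fell and APH1B did not pass the test, with a median log2 fold change of 0.53, against 0.01 for all rows, of which 21.8% rose and 21.3% fell.

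Receptor cleavage starts with ADAM10, the protease that sheds the ectodomain of a ligand-bound receptor. ADAM10 held 6153, 6347 and 6446 normalized counts in si-CTRL and 9177, 9732 and 9854 in si-NEK2, a log2 fold change of 0.60 (SE 0.06, adjusted p = 0.000124 by limma). NCSTN, the substrate-binding subunit of gamma-secretase, held 9677, 8714 and 9174 and then 13598, 14132 and 14999, a log2 fold change of 0.63 (SE 0.07, adjusted p = 0.00017 by limma). In both of these the si-NEK2 libraries all lay above the si-CTRL libraries. APH1A (0.55), PSENEN (0.53, in a row shared with LIN37) and ADAM17 (0.48) rose by less than 1.5-fold. PSEN2, a catalytic subunit, had 670.5 ± 47.9 normalized counts in si-CTRL and 518 ± 70.2 in si-NEK2 (SD, n = 3 each), a log2 fold change of -0.38 (adjusted p = 0.0316 by limma), and its call was lost under 6 of the 18 alternatives. The 5 increases were called under each of the 18 alternatives, but under upper quartile, equal total and quantile scaling none of them reached 1.5-fold. Equal total scaling moved the median log2 fold change of all rows to -0.12.

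**Figure D4:**
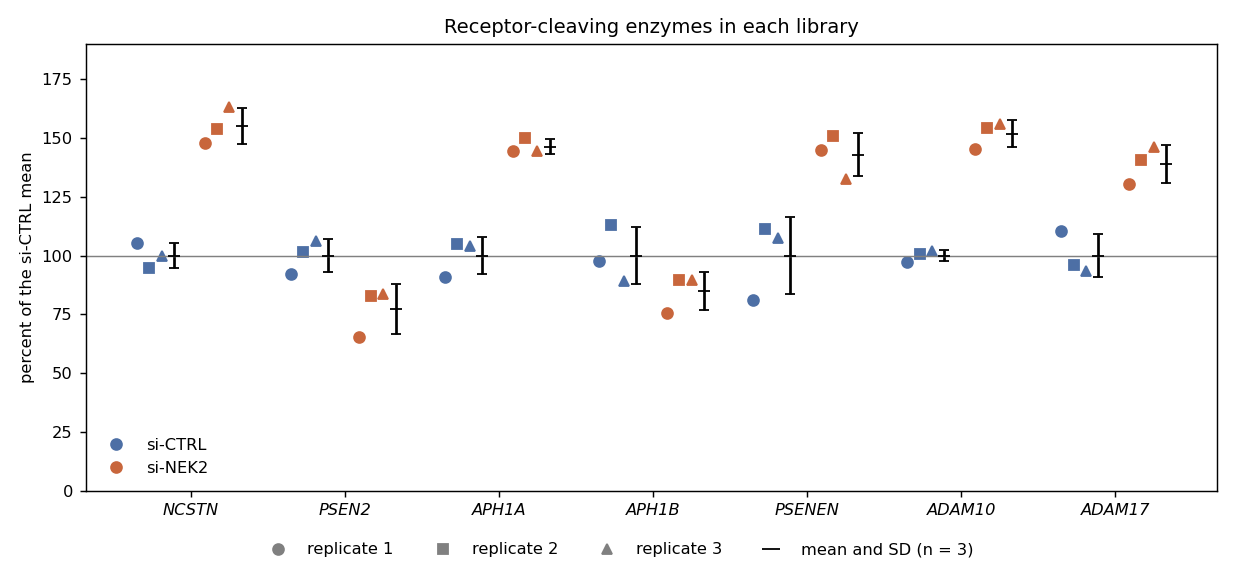
Level of 7 receptor-cleavage genes in each library, as a percentage of the si-CTRL mean of the gene (vertical axis), with mean and SD (n = 3) for si-CTRL (blue) and si-NEK2 (orange). NCSTN, APH1A, PSENEN, ADAM10 and ADAM17 lie above the line at 100 in all 3 si-NEK2 libraries, and PSEN2 and APH1B below it.

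Of the 6 genes that glycosylate or process receptors, POFUT1 (log2 fold change 0.53) and RFNG (0.25) rose, LFNG fell and 3 did not pass, beside 21.8% and 21.3% of all rows. The call of RFNG was lost under 10 of the 18 alternatives. LFNG, a Fringe enzyme that alters which ligands a receptor answers (in a row shared with MIR4648), held 231, 227 and 256 normalized counts in si-CTRL and 170, 136 and 102 in si-NEK2. The groups were apart, with a log2 fold change of -0.83 (SE 0.18, adjusted p = 0.00649 by limma). Of 9 other ligands listed, 6 were tested (DLL1, DLL3, DLL4, DLK2, DNER and MFAP2), and 0 reached an unadjusted p under 0.05 in limma or an adjusted p of 0.05 or less in edgeR and DESeq2, beside 21.8% and 21.3% of all rows that rose and fell. Without si-CTRL replicate 1, MFAP2 passed (log2 fold change 0.20, adjusted p = 0.00432 by limma). With all libraries the log2 fold changes of the 6 lay between -0.15 and 0.13. DLK1, CNTN1 and MFAP5 were listed at 0 in every library; a count of 0 allows up to 3 reads, or 2.46 to 3.75 normalized counts.

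In the list of ubiquitination and trafficking, 4 of 13 tested genes rose, 5 fell and 4 did not pass, beside 21.8% and 21.3% of all rows. The calls of MIB1 (higher) and DTX3 (lower) were lost under 12 and 7 of the 18 alternatives. ITCH, a ubiquitin ligase that acts on Notch, rose from 9286 ± 283 to 16354 ± 410 normalized counts (SD, n = 3 each), a log2 fold change of 0.82 (adjusted p = 2.49e-05 by limma). NEURL1B, a Neuralized-type ligase of ligand endocytosis, fell from 1102 ± 243 to 498.6 ± 39.9 normalized counts (log2 fold change -1.12, adjusted p = 0.000529 by limma). NEURL1 (-0.76) and FBXW7 (-0.75), whose product marks the active receptor domain for decay, fell past the 1.5-fold threshold as well.

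Of 8 co-activators, 2 rose, 3 fell and 3 did not pass, where 21.8% of all rows rose and 21.3% fell. The Mastermind genes, whose products bridge RBPJ and the receptor domain, did not share a direction. MAML1, in a row shared with LTC4S, held 6979, 6105 and 6400 normalized counts in si-CTRL and 11661, 11243 and 11899 in si-NEK2 (log2 fold change 0.84, adjusted p = 4.53e-05 by limma). MAML3 held 562, 415 and 637 and then 291, 262 and 261 (-0.96, adjusted p = 0.00135 by limma), and MAML2 also fell (-0.50). KAT2B, a histone acetyltransferase, fell from 1080 ± 85.7 to 559.4 ± 58.7 normalized counts (-0.95, adjusted p = 0.000207 by limma).

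Of 14 co-repressors, 2 rose, 2 fell and 10 did not pass, lower shares than the 21.8% and 21.3% of all rows. TLE4, a Groucho-type co-repressor of HES proteins, rose (log2 fold change 0.69, adjusted p = 9.53e-05 by limma) and its relative TLE3 fell (-0.60, adjusted p = 0.00818 by limma). Of the 11 other HES and HEY family genes and NRARP, 6 were tested and 1 fell, beside 21.3% of all rows. That gene was BHLHE41, a repressor of the same wider family better known from the circadian clock, with 664, 602 and 552 normalized counts in si-CTRL and 147, 184 and 164 in si-NEK2. The groups were far apart, with a log2 fold change of -1.87 (SE 0.12, adjusted p = 1.68e-05 by limma). NRARP, a feedback inhibitor and Notch target, had a log2 fold change of -0.28 (adjusted p = 0.084 by limma).

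**Figure D5:**
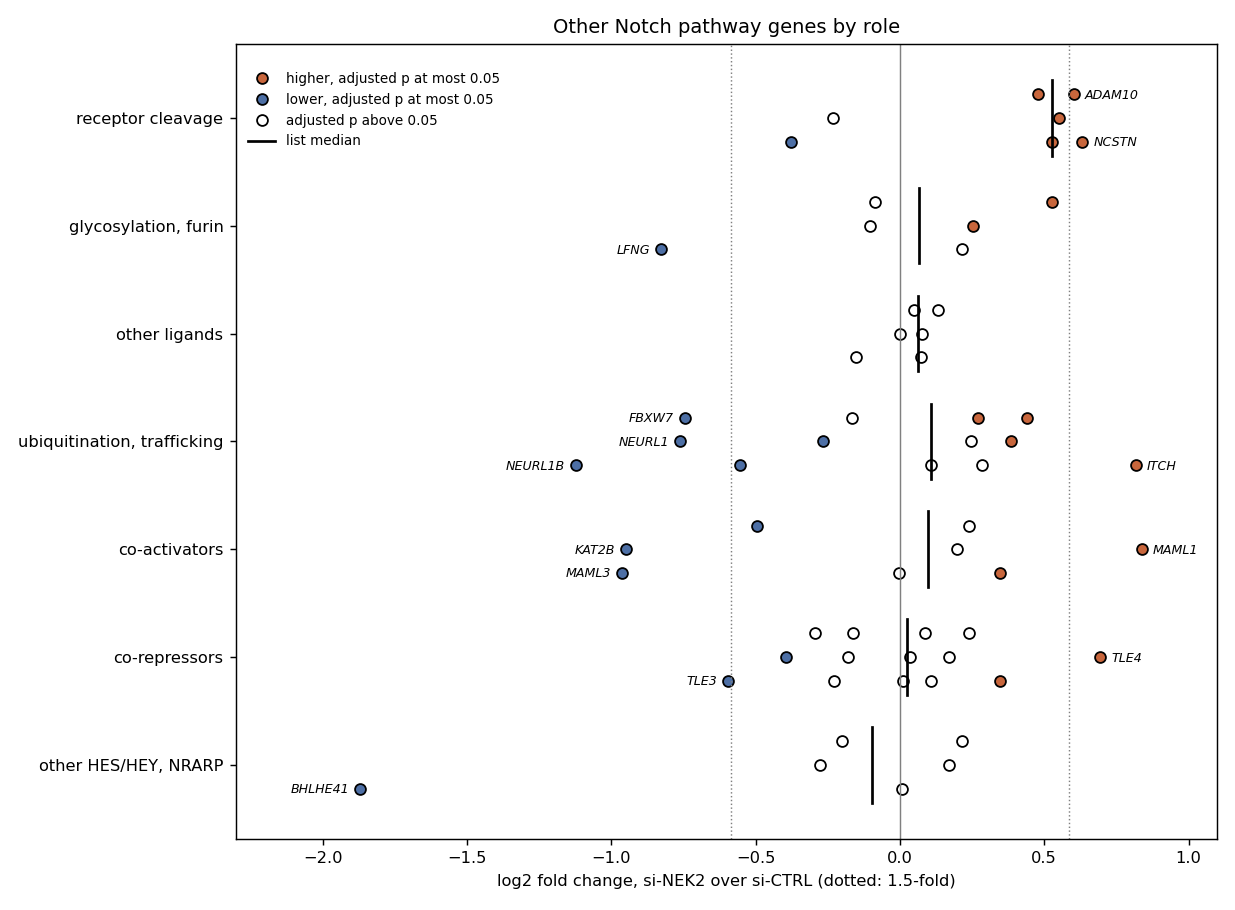
Log2 fold change in si-NEK2 over si-CTRL (horizontal axis) of 60 other Notch pathway genes in 7 lists by role (rows), 1 point per gene, filled where the limma adjusted p is at most 0.05; black bars are list medians, dotted lines 1.5-fold, and genes past the thresholds of the study are named. The receptor cleavage list has its median at 0.53, and BHLHE41 at -1.87 lies farthest from 0.

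The genes most like the called Notch genes were named by Pearson's r of log2(normalized count + 1) over the 6 libraries, among 12915 genes that carry a symbol and average 50 normalized counts or more. The libraries form 2 groups, so that any gene that differs between them scores high, and r is a description. For RBPJ they were STARD8, NEK2 and TMEM87B (r of at least 0.999, with 1469 genes at 0.95 or above). For JAG1 they were TTC13, WRNIP1 and CLCN4 (r = 0.998, 0.997 and 0.996), and for NOTCH4 they were VEGFC, FMNL2 and the shared row of RBFA and RBFADN (r = 0.998, 0.997 and 0.996). For HES1 they were the row of LTC4S and MAML1, DOPEY2 and SLC39A7 (r = 0.999, 0.998 and 0.998).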

How the data were processed

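RNA-seq of 3 si-CTRL and 3 si-NEK2 libraries was used. The authors deposited a normalized signal, that is reads per gene scaled by DESeq2 size factors. Genes follow FAST DB with coordinates in hg19, and replicates were not pooled. Per the labels, a stranded mRNA kit was used, and the submitters' processing notes name STAR 2.4.0, FastQC, Picard, SAMtools and DESeq2. The counter and its strand setting are not given in the sources used here, so overlapping genes may share reads.

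The Notch genes and the lists by role were chosen with earlier results of these data known. Where several rows hold a symbol, that of highest mean was kept. Rows with a mean of at least 10 were tested with limma 3.58.1 (R 4.3.3, lmFit and eBayes with a trend) on log2(value + 1), two-sided, with Benjamini-Hochberg adjustment over 18717 rows; on this scale fold changes of low genes are understated. The values were whole multiples of 1 read in 100% of 162171 values above 0 (tolerance 0.01 read), which gave reads for edgeR 4.0.16 and DESeq2 1.42.0 as alternatives. The tests were tried on simulated data. Named are all Notch genes, at most 4 genes per list past the thresholds of the study by absolute change, the 3 genes most like the called gene of largest change per role, and NEK2; other genes are named to complete small lists. Limits given for a count of 0 cover counting error only. Alternatives were other pseudocounts, filters, scalings, a replicate block, leaving out each library, and other thresholds. Promoters are from RefSeq. The lists do not hold every gene of the pathway, and 1 result is not reported here.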

Additional observations from a re-analysis of the deposited data

How the results depend on the processing

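The log2 fold changes of RBPJ (-2.11 to -1.91), JAG1 (-0.47 to -0.28), HES1 (0.27 to 0.43) and NEK2 (-3.45 to -3.19) kept their direction and their call under all 18 alternatives. NOTCH1 passed under equal total scaling (-0.46) and without si-NEK2 replicate 1, and ranged from -0.48 to -0.16 when a library was left out. NOTCH2 ranged from 0.025 to 0.27, NOTCH4 from -0.67 to -0.39 and HES4 from -0.56 to 0.21 when a library was left out. Under quantile normalization NOTCH4 was -0.37 and lost its call (adjusted p = 0.104 by limma). HEY1 was 0.45 there and passed (adjusted p = 0.013 by limma). NOTCH3 was 0.12 under quantile normalization, ranged from -0.41 to 0.26 when a library was left out and had no value with a mean of at least 50. The share of NOTCH3 in the receptor pool changed by -0.0587 to 0.0188 percentage points when a library was left out. The cause of these shifts was not tested. Notch genes that rose numbered 2 under quantile normalization and 1 to 2 when a library was left out. Notch genes lower by the thresholds of the study numbered 2 under upper quartile and equal total scaling, where NOTCH4 joined RBPJ, and 1 to 2 when a library was left out. Other pathway genes that rose numbered 12 to 23 when a library was left out, against 15. Pathway genes higher by the thresholds of the study numbered 3 under upper quartile scaling, 2 under equal total scaling, 2 under quantile normalization, 0 with a fold change of at least 2 and 4 to 7 when a library was left out, and 2 were lower with a fold change of at least 2. Of all rows past the thresholds, 36.6% were higher, against 28.1% under upper quartile scaling, 21.3% under equal total scaling and 45.9% under quantile normalization. Libraries of the same replicate number did not deviate together (correlations -0.091, 0.047 and -0.147), and those of different number had correlations from -0.119 to 0.180. With 3 libraries per group these values cannot decide whether the replicates were paired, and the records do not say. With a replicate block 6883 rows changed in place of 8063, with RBPJ at -1.98. The share of JAG1 among the Jagged ligands was not run. With few reads for NOTCH3, depth limits what could be seen of it.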
